A study of Homo sapiens with 12 samples.

Results

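Messenger RNA of 9 genes of the tumour necrosis factor (TNF) superfamily was followed in proliferating and senescent human fibroblasts. They were 8 ligands, TNFSF4, TNFSF9, TNFSF10, TNFSF12, TNFSF13B, TNFSF15, TNFSF18 and LTB, and TNFRSF11B, which encodes the soluble decoy receptor osteoprotegerin. The genes were taken by symbol from a table of read counts with 57500 genes, in which each symbol had 1 row. Reads were numerous enough for a test in 8 of the 9 genes, among 16251 genes tested in all, and too few for LTB.

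The cells were MRC5, a human fetal lung fibroblast line, and each of the 4 groups had 3 libraries (2 × 150 base reads). Prol cells were proliferating and were not irradiated. Sen(IR) cells were made senescent by 20 Gy of X-rays and collected 10 to 12 days later. Sen(IR)+UK5099 cells were irradiated in the same way and then kept in 100 μM UK5099, an inhibitor of the mitochondrial pyruvate carrier, and Sen(IR)+CTPI2 cells in CTPI2, an inhibitor of the mitochondrial citrate carrier SLC25A1. Both inhibitors were added 1 day after irradiation and kept for 12 days. CTPI2 was used at 15 or 30 μM in the study, and which of these was sequenced is not given in the sources used here. Proliferating cells with an inhibitor were not analysed here, so each inhibitor was compared on irradiated cells of 1 line.

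Ligands of the TNF superfamily are made mostly as trimeric membrane proteins, many of which can be shed, and they act on receptors of the TNF receptor superfamily on neighbouring cells. TNFSF4 (OX40 ligand), TNFSF9 (4-1BB ligand) and TNFSF18 (GITR ligand) co-stimulate T cells, TNFSF15 (TL1A) acts on T cells and innate lymphoid cells through death receptor DR3, TNFSF13B (BAFF) sustains B cells, and LTB, with lymphotoxin alpha, signals to stromal cells. TNFSF10 (TRAIL) can start apoptosis, TNFSF12 (TWEAK) acts on tissue cells through FN14, and osteoprotegerin binds RANK ligand and TRAIL and keeps them from their receptors. Immune cells are the best known source of most of these ligands, and senescent fibroblasts are known for secreting cytokines, growth factors and proteases, a program called the senescence-associated secretory phenotype.

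The libraries held 20597736 to 28245693 counts. Levels are given as CPM, the read count divided by the scaled size of the library, and 3 counts, taken as the floor of detection, were worth 0.111 to 0.147 CPM. The proliferation gene MKI67 had a mean of 235 ± 32.3 CPM in Prol, 11.0 ± 1.65 in Sen(IR), 12.4 ± 1.35 in Sen(IR)+CTPI2 and 0.949 ± 0.377 in Sen(IR)+UK5099 (± SD, n = 3 here and below). The 8 fibroblast markers examined summed to 19827 to 20392 CPM in Sen(IR) and to 10534 to 10977 in Sen(IR)+UK5099, with 4 of the 8 lower (COL1A1, COL1A2, COL3A1 and THY1). The 11 immune cell markers summed to between 55.0 and 64.3 CPM in Prol, 105 and 111 in Sen(IR), 96.2 and 114 in Sen(IR)+CTPI2 and 80.1 and 83.8 in Sen(IR)+UK5099, nearly all of it CD4, while PTPRC had at most 8 counts in any library and CD3E and MS4A1 at most 1. The 3 immune markers with enough reads for a test were all called higher in Sen(IR) than in Prol, as were most of the ligands and 24.8% of all tested genes. In Prol and Sen(IR), CD4 was at 58.7 and 103 CPM, CD14 at 0.192 and 3.32 and CD68 at 0.922 and 1.67. CD14 had enough reads for a test only through the senescent groups, which favoured its call as higher. Of the exon bases of CD68, 81.6% are shared with another gene on the same strand, so its count is uncertain. The 3 endothelial markers summed to at most 1.36 CPM in any library, and the 5 epithelial markers summed to between 49.2 and 63.5 in Prol, 17.0 and 19.5 in Sen(IR), 15.1 and 17.7 in Sen(IR)+CTPI2 and 8.69 and 10.2 in Sen(IR)+UK5099. What part these cell type markers have in the members' differences was not tested. In bulk RNA, fewer cells expressing a gene and less of its RNA per cell cannot be told apart.

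The members differed widely in level. Per kilobase of exon, osteoprotegerin mRNA was the most abundant of the 9 in every group, from 286 ± 11.6 CPM per kb in Prol to 82.4 ± 4.26 in Sen(IR)+UK5099. TNFSF4 was the most abundant ligand in Prol at 18.1 ± 4.40 CPM per kb, and TNFSF18 in Sen(IR) at 72.1 ± 2.67. TNFSF9, TNFSF10 and LTB were below 0.5 CPM per kb in every group.

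**Figure D1:**
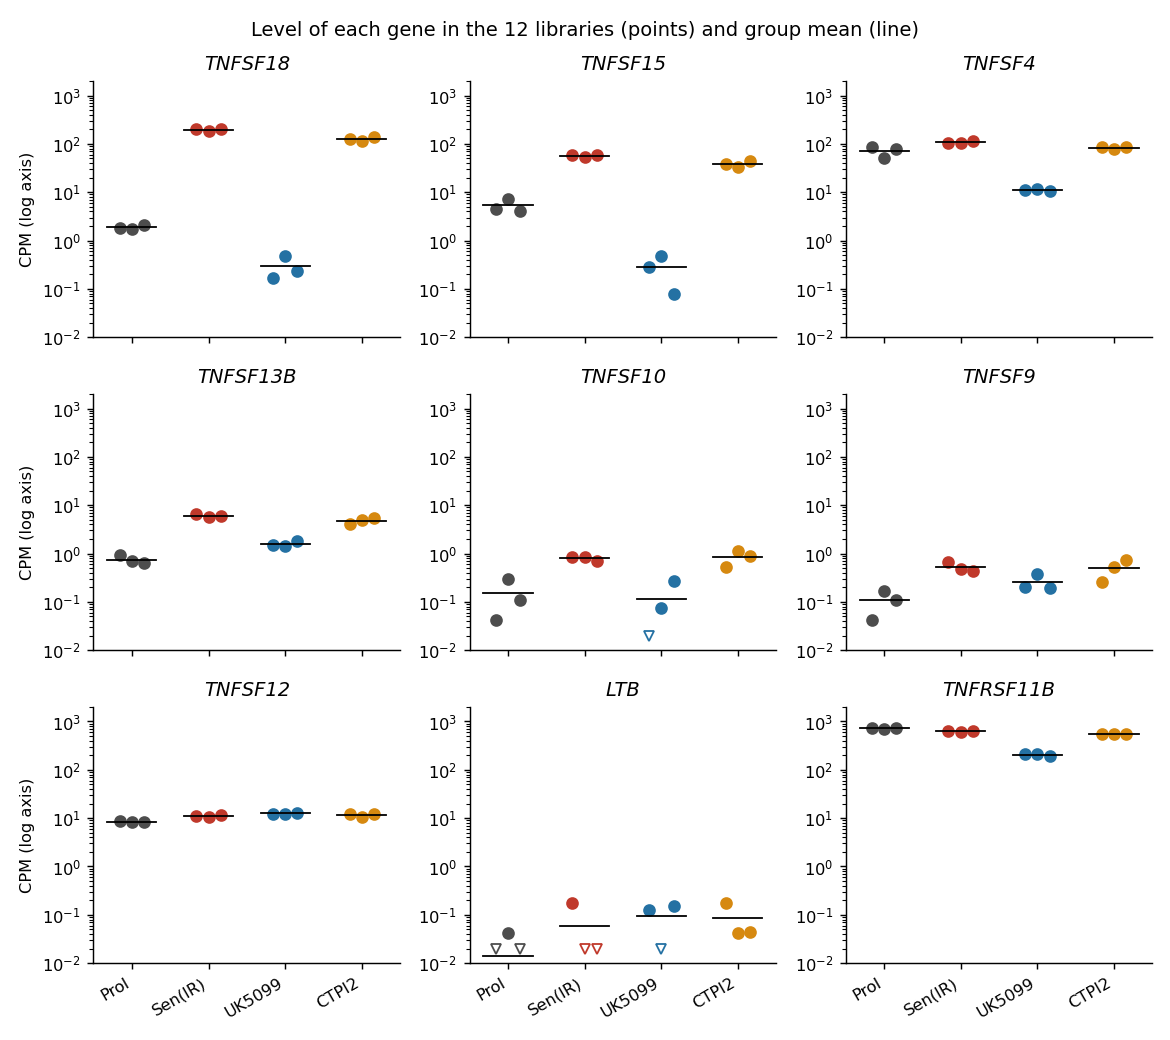
Level of each of the 9 genes in CPM on a logarithmic axis, by group, with 1 point per library and a line at the mean of the 3 libraries; open triangles at the lower edge are libraries with 0 counts. TNFSF18 and TNFSF15 rise from Prol to Sen(IR) and lie lowest in Sen(IR)+UK5099, TNFSF12 stays between 8.36 and 12.8 CPM, and TNFRSF11B lies between 554 and 739 CPM in all groups but Sen(IR)+UK5099, where it lies between 195 and 216.

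Irradiation senescence raised 6 of the 8 tested members. In the comparison of Sen(IR) with Prol, TNFSF18, TNFSF15, TNFSF13B, TNFSF10, TNFSF9 and TNFSF4 rose, TNFSF12 and TNFRSF11B moved by less than the limit, and none fell. A gene was called when its adjusted p in edgeR was under 0.05 and its log2 fold change was over 0.5 in size, which 24.8% of all tested genes met as higher and 22.4% as lower. The median log2 fold change of the 8 members was 2.302, against 0.01 over all tested genes. TNFSF10 and TNFSF9 passed the filter on low counts only through senescent groups, which favoured a call as higher. Both are included in the count and in the median. The groups did not overlap for 8 of 8 members, as for 70.9% of all tested genes.

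UK5099 lowered 6 of the 8 tested members in senescent cells. TNFSF18 and TNFSF15 were close to the floor of detection with UK5099, TNFSF4 was 9.75-fold lower, and TNFSF10, TNFSF13B and TNFRSF11B fell as well, while TNFSF9 and TNFSF12 were not called. Of all tested genes, 12.1% were called lower and 8.76% higher in this comparison. The members had a median log2 fold change of -2.33, and all genes of 0.01. TNFSF10 passed the filter on low counts only through senescent groups without UK5099, which favoured its call as lower. The groups were separate for 8 of 8 members, as for 56.6% of all tested genes.

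CTPI2 lowered 2 of the 8 tested members, TNFSF18 and TNFSF15, each by less than 2-fold. The call of TNFSF15 was lost when any of 5 single libraries was left out, with a replicate block and in DESeq2, which leaves 1 member. Only 0.148% of all tested genes were called lower with CTPI2, and 0.0185% higher. The members' median log2 fold change was -0.26, and that of all genes was 0.00. The groups were separate for 5 of 8 members, as for 15.1% of all tested genes. Sen(IR) libraries are shared by the comparisons with Prol, UK5099 and CTPI2, so the fold changes of a gene in these comparisons are not independent of one another.

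**Figure D2:**
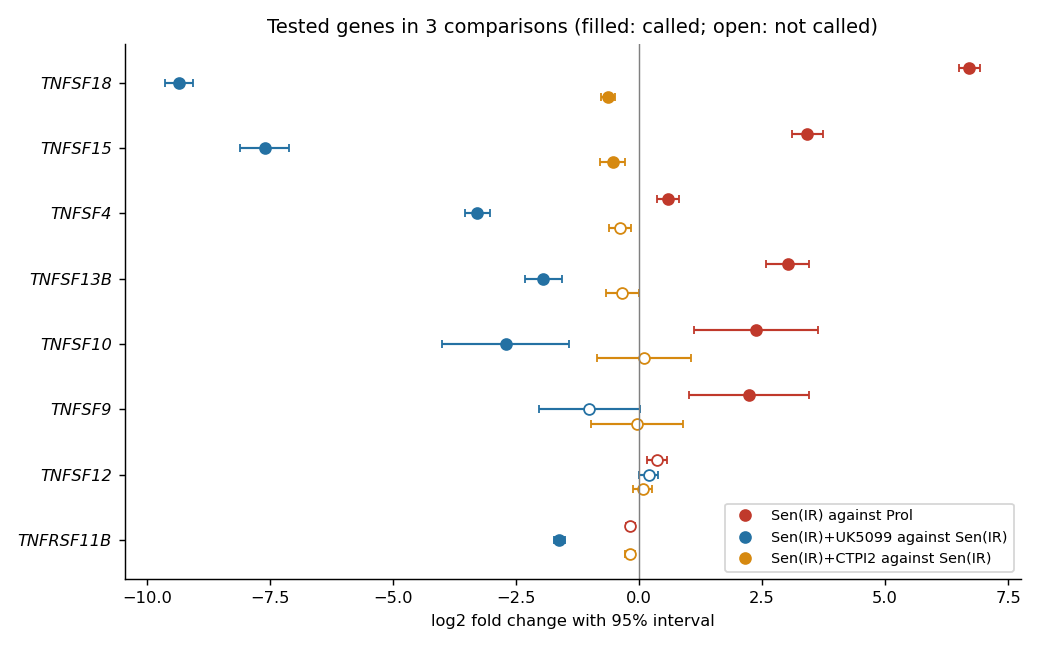
Log2 fold changes of the 8 tested genes (x axis, with 95% intervals) in 3 comparisons, with filled points for called genes and open points for the others. With UK5099 the changes run from -9.35 for TNFSF18 to 0.19 for TNFSF12, and with CTPI2 from -0.63 to 0.10. The intervals of TNFSF18 and TNFSF15 with UK5099 are narrower than their few counts allow.

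TNFSF18, the ligand of GITR, lies on chromosome 1 (173039202 to 173050941, minus strand, GRCh38), and TNFSF4, the ligand of OX40, lies 132.8 kb from it on the same strand (173183731 to 173207331). TNFSF15 is on chromosome 9 (114784652 to 114806039, minus strand) and TNFSF10 on chromosome 3 (172505508 to 172523475, minus strand). Among the 8 ligands followed here, these 4 had the largest log2 fold changes with UK5099. The 250 bases before the start of the canonical transcripts of TNFSF18, TNFSF15 and TNFSF10 in GENCODE, read from GRCh38 on the gene's strand, are shown so that the promoters of ligands that fell together can be set side by side. Capitals mark matches to an interferon-stimulated response element (GAAA, any 2 bases and GAAA again, both strands) and to a TATA box (TATAAA, gene's strand).
TNFSF18 (chr1:173050942-173051191, minus strand): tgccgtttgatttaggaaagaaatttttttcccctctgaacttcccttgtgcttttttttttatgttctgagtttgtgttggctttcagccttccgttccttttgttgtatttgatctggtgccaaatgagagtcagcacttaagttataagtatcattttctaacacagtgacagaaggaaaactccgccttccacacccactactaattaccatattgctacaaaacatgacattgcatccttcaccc
TNFSF15 (chr9:114806040-114806289, minus strand): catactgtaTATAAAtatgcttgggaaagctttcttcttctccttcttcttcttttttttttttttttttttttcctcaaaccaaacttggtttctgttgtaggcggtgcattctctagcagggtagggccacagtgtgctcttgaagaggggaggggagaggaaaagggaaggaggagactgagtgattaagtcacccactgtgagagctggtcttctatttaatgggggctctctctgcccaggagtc
TNFSF10 (chr3:172523431-172523680, minus strand): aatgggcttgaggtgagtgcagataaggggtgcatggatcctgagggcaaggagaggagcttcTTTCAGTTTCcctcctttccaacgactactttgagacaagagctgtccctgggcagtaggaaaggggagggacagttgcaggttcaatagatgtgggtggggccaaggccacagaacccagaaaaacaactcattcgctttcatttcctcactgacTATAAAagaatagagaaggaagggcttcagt

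Windows of 300 bases (250 before and 50 after the start) were searched for the 7 members that the RefSeq promoter table holds, which leaves out TNFSF12 and TNFRSF11B. RefSeq's own windows start at the same base or within 0.089 kb of it for 5 of the 7, and further downstream, at shorter transcripts, for the other two, by 13.5 kb for TNFSF15. The response element was present in 3 of 7 members, TNFSF9, TNFSF10 and TNFSF13B, and in 3.29% of 20018 protein-coding promoters of the same length. In TNFSF10 it began 187 bases before the start, in TNFSF9 194 and in TNFSF13B 71. TATAAA was present in TNFSF9 and TNFSF10, 30 and 31 bases before the start, and in TNFSF15 at 241 bases, and in 7.11% of promoters. The consensus site of nuclear factor kappa B (both strands) occurred in 1 of 7 members, LTB, and in 12.6% of promoters. A C/EBP motif (TTGCNNAA, both strands) occurred in 1, TNFSF13B, and in 8.10%, and an AP-1 motif (TGANTCA, both strands) in none of the 7 and in 5.43% of promoters. None of the 5 motifs was found in the window of TNFSF18. These are matches of letters and say nothing of binding.

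TNFSF18 (ENSG00000120337) had the widest range of the 9. Its 3 Prol libraries held 40 to 56 counts, or 1.72, 1.83 and 2.08 CPM. The Sen(IR) libraries were at 203, 189 and 201 CPM, and Sen(IR)+CTPI2 at 126, 117 and 140. With UK5099 the counts were 4, 13 and 6, or 0.165, 0.482 and 0.232 CPM. All 4 groups were apart, in the order Sen(IR), Sen(IR)+CTPI2, Prol and Sen(IR)+UK5099. The rise with senescence was 105-fold (log2 6.71 ± 0.105 SE, adjusted p = 1.98e-22 in edgeR). With UK5099 the level was 651-fold lower than in Sen(IR) (log2 -9.35 ± 0.136, adjusted p = 6.32e-23) and 6.22-fold lower than in Prol (log2 -2.64 ± 0.278, adjusted p = 1.54e-08). CTPI2 lowered it 1.55-fold (log2 -0.63 ± 0.0666, adjusted p = 7.89e-06), and it remained 67.7-fold above Prol. Between the inhibitors, UK5099 was lower by 8.72 on the log2 scale. With 4, 13 and 6 counts, the SEs given here for UK5099 are smaller than counting error alone and overstate the precision.

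TNFSF15 (ENSG00000181634), the ligand of DR3, had the same order of groups. Prol libraries were at 4.52, 7.38 and 4.16 CPM and Sen(IR) libraries at 59.2, 52.7 and 57.9. Sen(IR)+CTPI2 gave 38.2, 33.7 and 45.1 CPM, and Sen(IR)+UK5099 0.290, 0.482 and 0.0774, from 7, 13 and 2 counts. Prol replicate 2 was the highest of its group, and no 2 groups overlapped. The gene rose 10.6-fold in senescence (log2 3.41 ± 0.152, adjusted p = 5.90e-15), and with UK5099 it was 195-fold below Sen(IR) (log2 -7.60 ± 0.240, adjusted p = 5.91e-17) and 18.3-fold below Prol (log2 -4.19 ± 0.336, adjusted p = 1.62e-10). With 7, 13 and 2 counts, the SE of UK5099 against Sen(IR) is smaller than counting error alone. The lowering by CTPI2 was 1.45-fold (log2 -0.54 ± 0.122) with an adjusted p of 0.0495. That call was lost without any 1 of Sen(IR) replicates 1, 2 or 3 (adjusted p = 0.369, 0.116 and 0.289) or CTPI2 replicates 1 or 2 (0.232 and 0.404), and in DESeq2 (0.526).

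TNFSF4 (ENSG00000117586) was already well expressed in proliferating cells, at 84.3, 51.8 and 78.8 CPM. Sen(IR) libraries were at 106, 105 and 114 CPM and Sen(IR)+CTPI2 libraries at 86.7, 77.6 and 84.8. The 3 libraries with UK5099 had 10.9, 11.6 and 10.8 CPM and lay below every other library. The rise with senescence was 1.51-fold (log2 0.59 ± 0.107, adjusted p = 3.94e-05); without Prol replicate 2, the lowest of its group, it was 0.41 on the log2 scale and under the limit (adjusted p = 3.54e-06). UK5099 brought it 9.75-fold below Sen(IR) (log2 -3.29 ± 0.127, adjusted p = 2.51e-15) and 6.46-fold below Prol (log2 -2.69 ± 0.127, adjusted p = 1.32e-14). Sen(IR)+CTPI2 lay between Sen(IR) (log2 -0.38, 95% interval -0.60 to -0.16, adjusted p = 0.176) and Prol (log2 0.21, -0.01 to 0.44, adjusted p = 0.0856) and was called different from neither.

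TNFSF18 and TNFSF4 are neighbours, and both were low with UK5099, but their changes with irradiation were of different size. In Prol, TNFSF4 had 18.1 ± 4.40 and TNFSF18 0.684 ± 0.0678 CPM per kb. In Sen(IR) the order was turned, with 27.3 ± 1.36 for TNFSF4 and 72.1 ± 2.67 for TNFSF18. With UK5099, TNFSF4 kept 2.80 ± 0.103 CPM per kb and TNFSF18 0.107 ± 0.0607. Over the 12 libraries the log2 CPM of TNFSF18 and TNFSF15, which lie on different chromosomes, had a Pearson r of 0.95, and those of TNFSF18 and TNFSF4 of 0.82. The 12 points are 4 groups of 3, so that these values describe the order of the groups.

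TNFSF13B (ENSG00000102524), the B-cell factor BAFF on chromosome 13 (108251240 to 108308484, plus strand), kept part of its rise with UK5099. Prol libraries were at 0.937, 0.686 and 0.631 CPM, Sen(IR) at 6.71, 5.59 and 5.93, and Sen(IR)+CTPI2 at 4.03, 4.99 and 5.36. The Sen(IR)+UK5099 libraries, at 1.49, 1.41 and 1.82 CPM, lay between Prol and Sen(IR) with no overlap. It rose 8.09-fold in senescence (log2 3.02 ± 0.208, adjusted p = 1.49e-11). UK5099 lowered it 3.86-fold from there (log2 -1.95 ± 0.182, adjusted p = 1.03e-08), to a level still above Prol (log2 1.07 ± 0.245, adjusted p = 5.01e-04). CTPI2 gave a log2 fold change of -0.34 (95% interval -0.67 to -0.01, adjusted p = 0.667).

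TNFSF10 and TNFSF9 were tested on few reads. TNFSF10 (ENSG00000121858), TRAIL, had 1, 7 and 3 counts in Prol, 19, 18 and 14 in Sen(IR), 12, 27 and 21 in Sen(IR)+CTPI2 and 0, 2 and 7 in Sen(IR)+UK5099. Every Sen(IR) library was above every Prol and every UK5099 library. It was higher in Sen(IR) than in Prol (log2 2.37 ± 0.604, adjusted p = 0.00147) and lower with UK5099 than without (log2 -2.72 ± 0.626, adjusted p = 0.00116). Sen(IR)+UK5099 and Prol differed by -0.34 (95% interval -2.06 to 1.37), and Sen(IR)+CTPI2 and Sen(IR) by 0.10 (-0.86 to 1.05), intervals wide enough at this depth that a difference could be missed.

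TNFSF9 (ENSG00000125657), the 4-1BB ligand on chromosome 19 (6531026 to 6535924, plus strand), had 1, 4 and 3 counts in Prol, 15, 10 and 9 in Sen(IR), 6, 13 and 17 in Sen(IR)+CTPI2 and 5, 10 and 5 in Sen(IR)+UK5099. In CPM, Prol lay below the other groups and Sen(IR) above Sen(IR)+UK5099. The difference between Sen(IR) and Prol was called (log2 2.23 ± 0.586, adjusted p = 0.00189). UK5099 against Sen(IR) gave -1.02 (95% interval -2.04 to 0.01, adjusted p = 0.1004) and UK5099 against Prol 1.22 (-0.12 to 2.55, adjusted p = 0.0947), so that neither side was called. Both genes passed the filter on low counts through the senescent groups in which they were high.

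TNFSF12 (ENSG00000239697), TWEAK, on chromosome 17 (7548508 to 7557890, plus strand), varied least among the tested members. Prol libraries had 8.69, 8.49 and 8.36 CPM, Sen(IR) 10.8, 10.6 and 11.4, Sen(IR)+CTPI2 11.9, 10.7 and 11.9, and Sen(IR)+UK5099 12.2, 12.4 and 12.8. Prol was the lowest group and Sen(IR)+UK5099 the highest, and only Sen(IR) and Sen(IR)+CTPI2 overlapped. Senescence moved it by 0.36 on the log2 scale (adjusted p = 0.00198), under the limit, and only Sen(IR)+UK5099 against Prol was called (log2 0.55 ± 0.0921, adjusted p = 1.27e-05). UK5099 against Sen(IR) gave 0.19 (95% interval 0.00 to 0.38, adjusted p = 0.0888). Of its exon bases, 13.7% are shared with the read-through gene TNFSF12-TNFSF13 and an antisense gene, and whether the counting used strand is not given in the sources used here.

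LTB (ENSG00000227507), lymphotoxin beta on chromosome 6 (31580525 to 31582522, minus strand), had 18 counts over all 12 libraries. There were 0, 1 and 0 counts in Prol, 4, 0 and 0 in Sen(IR), 4, 1 and 1 in Sen(IR)+CTPI2 and 3, 0 and 4 in Sen(IR)+UK5099. All 4 groups overlapped, and at this depth no difference was detectable.

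TNFRSF11B (ENSG00000164761) on chromosome 8, osteoprotegerin, was abundant in every group. Prol libraries were at 739, 685 and 731 CPM, Sen(IR) at 638, 620 and 650 and Sen(IR)+CTPI2 at 561, 554 and 564. With UK5099 it had 216, 210 and 195 CPM. The 4 groups did not overlap, and the gap to the UK5099 libraries was the widest. Osteoprotegerin fell 3.07-fold with UK5099 against Sen(IR) (log2 -1.62 ± 0.0502, adjusted p = 4.31e-17) and 3.47-fold against Prol (log2 -1.80 ± 0.0504, adjusted p = 1.22e-18). The differences of Sen(IR) from Prol (log2 -0.18 ± 0.0486, adjusted p = 0.00282) and of Sen(IR)+CTPI2 from Sen(IR) (log2 -0.18 ± 0.0486, adjusted p = 0.143) were under the limit. The level of osteoprotegerin, unlike that of the 6 ligands raised by irradiation, was highest in Prol.

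The sum of the 8 ligands, per kilobase of exon, gives their make-up in each group. It was 21.7 ± 4.17 CPM per kb in Prol, 112 ± 4.17 in Sen(IR), 77.3 ± 6.02 in Sen(IR)+CTPI2 and 6.45 ± 0.189 in Sen(IR)+UK5099, and no library of 1 group overlapped with another group. TNFSF4 made up 82.8 ± 4.90% of the sum in Prol, and TNFSF18 3.21 ± 0.499%. TNFSF18 made up 64.6 ± 0.520% in Sen(IR) and 60.3 ± 0.843% in Sen(IR)+CTPI2. With UK5099 the sum was shared mainly by TNFSF4 (43.4 ± 1.43%) and TNFSF12 (42.5 ± 1.01%). TNFSF18 was then 1.64 ± 0.901% and TNFSF15 0.563 ± 0.395% of the sum.

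**Figure D3:**
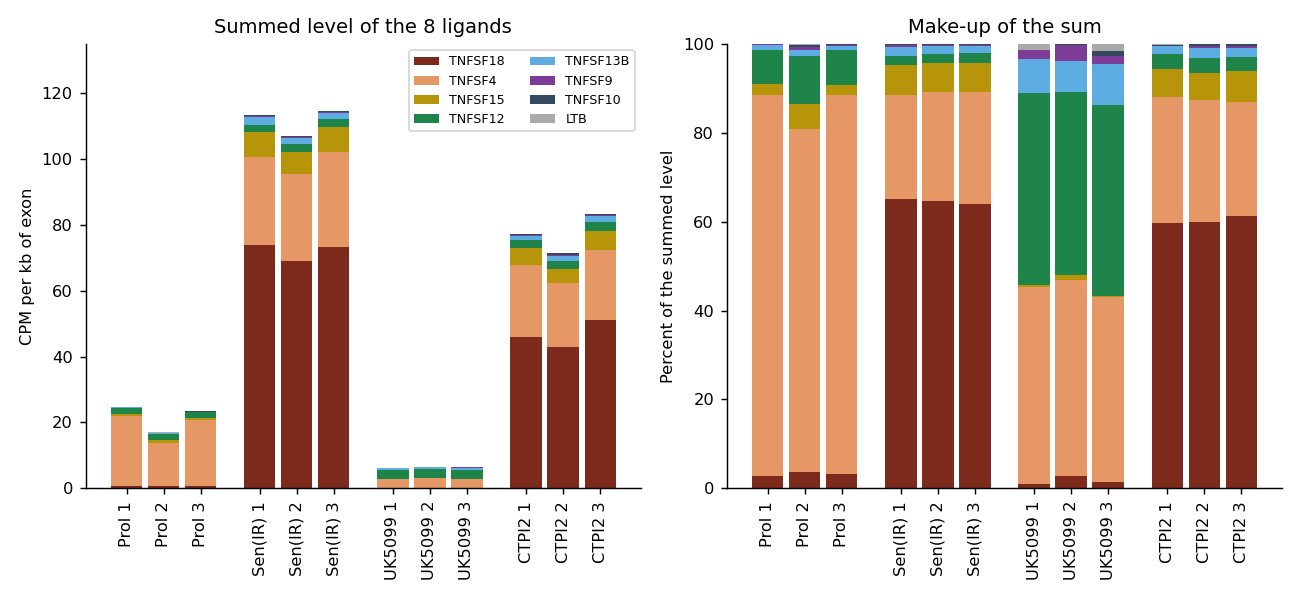
Stacked levels of the 8 ligands in each library, as CPM per kb of exon (left, from 0) and as percent of their sum (right). TNFSF18 is the largest share in the 6 libraries of Sen(IR) and Sen(IR)+CTPI2, and TNFSF4 with TNFSF12 fill most of the small sum in Sen(IR)+UK5099.

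UK5099 and CTPI2 differ in target and dose, and the groups given them were set side by side. Sen(IR)+UK5099 was lower than Sen(IR)+CTPI2 in 6 of the 8 tested members and higher in none, where 11.7% of all tested genes were called lower and 8.2% higher. TNFSF10, among the 6, passed the filter on low counts only through senescent groups without UK5099. The groups did not overlap for 7 of 8 members, as for 53.6% of all tested genes. The log2 differences were -8.72 for TNFSF18, -7.07 for TNFSF15, -2.90 for TNFSF4, -2.81 for TNFSF10, -1.61 for TNFSF13B and -1.44 for TNFRSF11B. TNFSF9 (-0.97, 95% interval -1.99 to 0.05, adjusted p = 0.115) and TNFSF12 (0.12, -0.07 to 0.30, adjusted p = 0.302) were not called.

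Sen(IR)+CTPI2 was above Prol in 5 of the 8 members and below it in none, where 24.8% of all tested genes were called higher and 21.9% lower. The 5 were TNFSF18, TNFSF15, TNFSF13B, TNFSF10 and TNFSF9, with log2 differences of 6.08, 2.87, 2.67, 2.47 and 2.19. TNFSF10 and TNFSF9 passed the filter on low counts only through senescent groups, which favoured these calls. Sen(IR)+UK5099 was below Prol in 4 members (26.2% of all tested genes) and above it in 2 (26.9%). The 4 lower were TNFSF15, TNFSF4, TNFSF18 and TNFRSF11B, and the 2 higher TNFSF13B and TNFSF12. The groups did not overlap for 7 of 8 members in either comparison, as for 70.1% of all tested genes with CTPI2 and 74.5% with UK5099. Both comparisons use the same Prol libraries.

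Of 16 receptors and binding partners of the members, 7 had enough reads for a test. Compared with Prol, 6 of the 7 rose in Sen(IR) and TNFRSF12A fell, with a median log2 fold change of 1.27, beside 24.8% higher, 22.4% lower and a median of 0.01 over all tested genes. The TRAIL receptors rose together. The death receptor TNFRSF10B went from 174 ± 10.3 to 420 ± 2.15 CPM (log2 1.27 ± 0.0505, adjusted p = 8.07e-16), and TNFRSF10A from 3.94 ± 0.255 to 7.45 ± 0.805 (log2 0.92, adjusted p = 6.51e-06). The decoy receptors rose more, TNFRSF10D from 129 ± 0.867 to 387 ± 27.5 CPM (log2 1.59, adjusted p = 2.81e-17) and TNFRSF10C from 1.36 ± 0.124 to 13.3 ± 0.927 (log2 3.29, adjusted p = 9.63e-13). LTBR, the lymphotoxin beta receptor, rose from 99.2 ± 5.30 to 188 ± 4.07 CPM (log2 0.92) and TNFRSF25, the receptor DR3 of TNFSF15, from 0.721 ± 0.154 to 1.97 ± 0.431 (log2 1.44). TNFRSF12A, the TWEAK receptor FN14, fell from 114 ± 20.04 to 74.3 ± 3.38 CPM (log2 -0.62, adjusted p = 1.26e-06).

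UK5099 lowered 3 of these 7 receptors in senescent cells, by less than 2-fold each, beside 12.1% of all tested genes. TNFRSF10B was at 270 ± 11.1 CPM (log2 -0.64, adjusted p = 4.99e-10), TNFRSF10D at 267 ± 4.20 (log2 -0.54, adjusted p = 1.11e-08) and TNFRSF12A at 48.3 ± 2.85 (log2 -0.62, adjusted p = 5.50e-06). The first 2 stayed above Prol (log2 0.63 and 1.05). With CTPI2, 0 of 7 was called in edgeR and 0 in DESeq2, with 2 at an unadjusted p under 0.05. Over all tested genes only 0.148% were called lower and 0.0185% higher, so 0 of 7 is near that share.

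The other 9 partners were at or near 0. The T-cell receptors TNFRSF18 (GITR) and TNFRSF4 (OX40), which bind TNFSF18 and TNFSF4, had at most 3 and 4 counts in any library, and TNFRSF9 (4-1BB) at most 11. TNFRSF13B, TNFRSF13C and TNFRSF17, which bind BAFF on B cells, had at most 1, 7 and 3. TNFSF11 (RANK ligand), which osteoprotegerin binds, and the decoy TNFRSF6B had 0 in all 12 libraries, although all exon bases of TNFRSF6B are shared with a read-through gene, so that a count of 0 says little of it. TNFRSF11A (RANK) had at most 7.

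**Figure D4:**
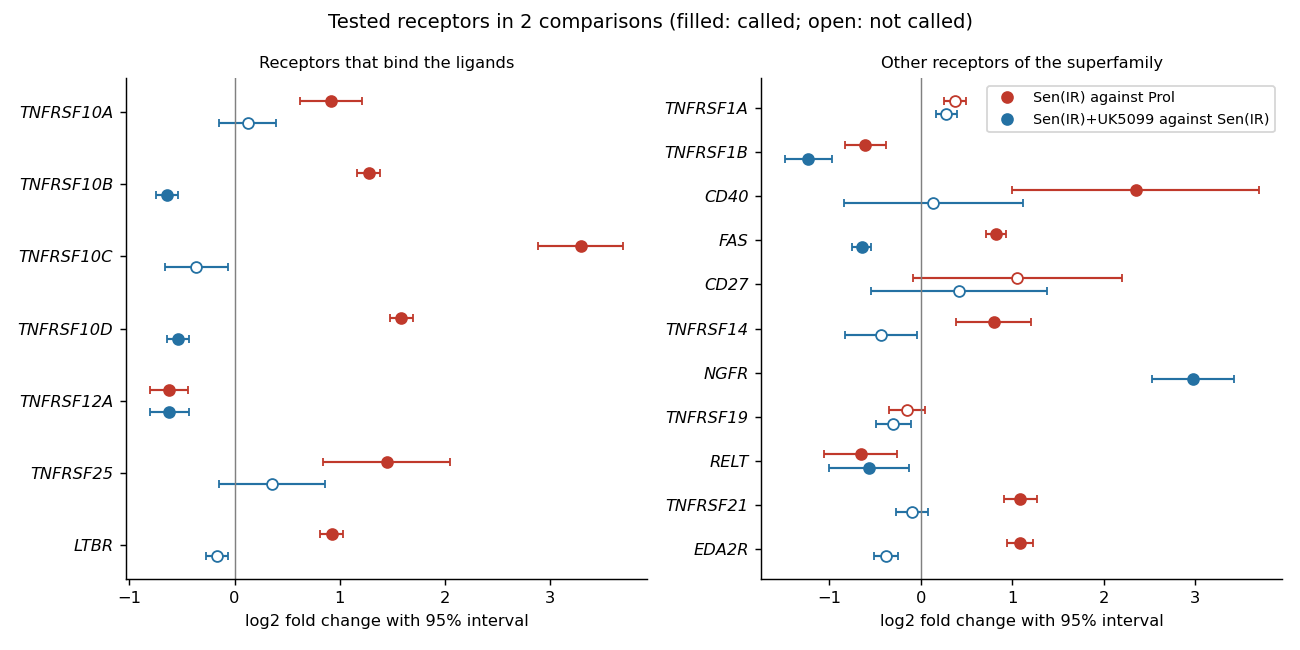
Log2 fold changes (x axis, with 95% intervals) of the tested receptors that bind the members (left) and of the other tested receptors of the superfamily (right), for Sen(IR) against Prol and Sen(IR)+UK5099 against Sen(IR); filled points are called. The first comparison is not drawn for NGFR, which was at or under 3 counts in every Prol library. TNFRSF10C has the largest rise on the left, at 3.29, and NGFR is the only one of these receptors called higher with UK5099, by 2.97.

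Few of the other ligands of the superfamily were expressed. TNF, CD70, FASLG, LTA, TNFSF8 and CD40LG had at most 1, 2, 2, 4, 4 and 0 counts in any library and were not tested. TNFSF14 (LIGHT) was expressed at a low level, with 0 counts in all Prol libraries, 1.41 ± 0.115 CPM in Sen(IR), 1.31 ± 0.337 in Sen(IR)+CTPI2 and at most 1 count with UK5099. Against the floor of 3 counts per library, it was at least 11.0-fold higher in Sen(IR) than in Prol and at least 11.4-fold lower with UK5099 than without. TNFSF13 was higher in Sen(IR) (log2 1.30 ± 0.388), with 55.5% of its exon bases shared with TNFSF12-TNFSF13, and EDA at least 2.22-fold higher. With CTPI2, 0 of the 3 tested was called against Sen(IR) in edgeR and 0 in DESeq2, with 0 at an unadjusted p under 0.05. This is near the share of all tested genes, 0.148% lower and 0.0185% higher.

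Among 13 further receptors, 11 were tested, and 6 rose and 2 fell in Sen(IR) against Prol, beside the same 24.8% and 22.4% of all tested genes. NGFR and CD40, among the 6, passed the filter on low counts only through senescent groups, which favoured their calls as higher. The death receptor FAS rose from 63.7 to 113 CPM (log2 0.82) and TNFRSF21 from 121 to 256 (log2 1.09), while TNFRSF1B, the receptor TNFR2, fell from 18.7 to 12.2 (log2 -0.61). UK5099 lowered TNFRSF1B (log2 -1.23 ± 0.123), FAS (log2 -0.65 ± 0.0510) and RELT (log2 -0.57 ± 0.210). It raised NGFR, the neurotrophin receptor, from 1.15 ± 0.306 to 9.01 ± 0.406 CPM (log2 2.97 ± 0.216). Of all tested genes, 12.1% were called lower and 8.76% higher. In DESeq2, 2 of these receptors were called lower and 1 higher. Of the exon bases of NGFR, 22.3% are shared with an opposite-strand gene and 4.88% with NGFR-AS1. Its count is uncertain, because whether the counting used strand is not given in the sources used here. With CTPI2, 0 of 11 was called in edgeR and 0 in DESeq2, with 1 at an unadjusted p under 0.05. This is near the share of all tested genes, 0.148% lower and 0.0185% higher. All 28 signalling genes examined downstream of the receptors were tested, and 8 rose and 6 fell with senescence, shares near the 24.8% and 22.4% of all tested genes, with a median log2 fold change of -0.01. TNFAIP3, CASP10 and TRAF1 rose most (log2 2.60, 2.07 and 1.71), and TRAF5, MAP3K14 and TRAF2 fell most (log2 -1.47, -1.44 and -0.97). CASP10 was at 0.274 ± 0.137 CPM in Prol and 1.16 ± 0.147 in Sen(IR). It passed the filter on low counts only through senescent groups, which favoured its call as higher. UK5099 lowered 2 of the 28 and raised none, beside 12.1% lower and 8.76% higher over all tested genes.

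TNFAIP3 (A20), a feedback inhibitor of nuclear factor kappa B signalling, went from 40.4 ± 2.07 to 2.07 ± 0.117 CPM with UK5099 (log2 -4.28 ± 0.109, adjusted p = 1.29e-18), and BIRC3 (cIAP2), a ubiquitin ligase bound to TNF receptor complexes, from 9.26 ± 1.16 to 0.5004 ± 0.168 (log2 -4.18 ± 0.231, adjusted p = 1.38e-12). In Prol these were at 6.67 ± 0.510 and 3.19 ± 0.645 CPM, so both, like TNFSF18, TNFSF15 and TNFSF4, were lower with UK5099 than in proliferating cells (log2 -1.68 and -2.65). With CTPI2, 0 of the 28 was called in edgeR and 0 in DESeq2, with 1, TNFAIP3, at an unadjusted p under 0.05 (log2 -0.40, adjusted p = 0.0176, under the fold-change limit). The count of 0 is near the share of all tested genes, 0.148% lower and 0.0185% higher.

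For each tested member, the 3 genes with the most similar log2 CPM over the 12 libraries were found among 12134 genes, by Pearson r, as a description of 4 groups of 3 libraries. For TNFSF18 they were SULF1, STC1 and WFDC21P (0.997, 0.994 and 0.994), for TNFSF15 CAVIN2, DIO2 and PDHX (0.9904, 0.9898 and 0.989) and for TNFSF4 SLC20A1, TRIM55 and BDKRB1 (0.994, 0.993 and 0.991). PTGS2, the inducible cyclooxygenase, was nearest to TNFSF13B (0.994), and IL15 to TNFSF10 (0.953). IL7R, the interleukin 7 receptor, was nearest to TNFRSF11B (0.999). TNFSF12 was nearest to SLC9B2 (0.987) and TNFSF9 to RILP (0.957). Patterns set by the same 4 group means are common: 154 genes passed 0.95 with TNFSF18, 198 with TNFRSF11B and 1 with TNFSF9.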

How the data were processed

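MRC5 RNA from 12 libraries in 4 groups of 3 was measured by RNA sequencing. The values used were raw read counts per gene, as deposited by the authors. According to the study's methods and the submitters' processing notes, reads were trimmed with Trimmomatic 0.36, aligned to GRCh38 with STAR 2.5.2b, and unique reads in exons were counted per gene with featureCounts of Subread 1.5.2. Strand was used only if the library kit kept it, and whether it did is not given in the sources used here. No columns of other samples were present. Reads that map to several places were not counted, so reads shared with near-identical or overlapping genes are missing or uncertain.

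Counts were tested in edgeR 4.0.16 (R 4.3.3, limma 3.58.1): genes were kept by filterByExpr over the 4 groups (minimum count 10, 16251 of 57500 genes, holding 99.9% of counts), scaled by TMM, and fitted in 1 quasi-likelihood model of all 12 libraries without a replicate term. p-values were adjusted by the Benjamini-Hochberg method over all tested genes. The study's fold-change limit (log2 0.5) was kept, while its test was DESeq2 with an unadjusted p. Each SE is the log2 fold change divided by the root of its F statistic, and 95% intervals use it. For very large fold changes with few counts in 1 group, such as TNFSF18 and TNFSF15 with UK5099, this SE is too small. CPM use TMM-scaled totals, and CPM per kb divide by the union of exons in GENCODE v44. The fit was tested on simulated data before use. Groups came from the sample labels, and replicates were separate samples that differed by more than counting noise (chi-square per gene 2.28 to 13.6). The study calls them independent conditions or experiments, but the labels name no separate cultures, so p-values measure the spread between these libraries. The 95% intervals come from the same fit, while floors from counts cover counting error only.

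The 9 genes, the named genes (all members, their receptors and partners, the other ligands and receptors, the 3 largest called changes in each direction among signalling genes, and the 3 genes nearest to each tested member) and the marker lists were chosen with earlier results of these data known. Several of the ligands are also among secretory genes that the study displayed from these same libraries, so their direction is not independent evidence. The fit was repeated with DESeq2 1.42.0, with scaling by RLE or upper quartiles, unfiltered, on the libraries of 2 groups at a time, with the replicate number as a block, at other thresholds and with each library left out. One promoter sequence and one marker gene are not reported here.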

Additional observations from a re-analysis of the deposited data

How the results depend on the processing

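The number of members called in each comparison was recomputed under every alternative. It stayed within 1.5 times its value in 82 of 90 recomputed counts, and the other 8 were all for CTPI2 against Sen(IR), where 2 members were called. There the count was 1 with a replicate block, 1 with DESeq2, 0 with a log2 limit of 1, and 1 to 2 when each library was left out in turn. TNFSF15 was the member lost, with an adjusted p of 0.0733 under the replicate block. Same-numbered libraries did not deviate together (18 pairs, correlations -0.0511 to 0.0423, others -0.0622 to 0.102). Whether they were cultured or processed together cannot be told from this. The block changed no other call of a member.

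Of the single members, 5 values turned in direction when 1 library was left out, none of them called before or after. TNFSF9 with CTPI2 against Sen(IR) became 0.16 without Sen(IR) replicate 1 and 0.26 without CTPI2 replicate 1. TNFSF10 became -0.15 in that comparison without CTPI2 replicate 2, and in UK5099 against Prol it became 0.53 without Prol replicate 2 and 0.19 without UK5099 replicate 1. Over all libraries left out in turn, TNFSF9 with CTPI2 against Sen(IR) ran from -0.39 to 0.26, TNFSF10 in that comparison from -0.15 to 0.35, and TNFSF10 in UK5099 against Prol from -1.81 to 0.53. Without CTPI2 replicate 1, TNFSF9 was called lower with UK5099 than with CTPI2 (-1.27, adjusted p = 0.0482 in edgeR). Upper-quartile scaling moved the median of all genes by 0.12, 0.14 and 0.11 in the comparisons of Sen(IR), UK5099 and CTPI2 with Prol, and there called TNFSF12 higher with CTPI2 than in Prol (0.55). The cause was not tested.

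Over all genes, a log2 limit of 1 left 4030 calls of 7677 for Sen(IR) against Prol, 1511 of 3386 for UK5099 against Sen(IR), 11 of 27 for CTPI2 against Sen(IR), 1417 of 3236 between the inhibitors, and 4967 of 8632 and 4028 of 7599 for UK5099 and CTPI2 against Prol. With no limit there were 7384 for UK5099 against Sen(IR), 79 for CTPI2 against Sen(IR) and 7227 between the inhibitors. CTPI2 against Sen(IR) gave 46 calls without the filter, 287 with the unadjusted p of DESeq2, and 15 to 21 with 1 library left out. TNFSF9, TNFSF10 and LTB had at most 27 counts in any library, which limits what can be said of them.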
